A study of Mus musculus with 4 samples.

Results

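The expression of 10 genes of the extraembryonic endoderm was examined in mouse E14 embryonic stem cells in which Ssrp1 had been targeted: the transcription factor genes Gata6, Gata4, Sox17, Sox7 and Foxa2, the growth factor receptor gene Pdgfra, and the endocytic genes Dab2, Lrp2, Cubn and Amn. They were chosen by name, with earlier results of these data known, as 10 of the 55353 gene symbols in the count table. All 10 were found. There were 2 libraries labelled Ssrp1 KO, made from an E14 cell line in which Cas9 and a guide RNA had been used against Ssrp1, and 2 control libraries of wild-type E14 cells. Both groups share a strain label (12910la) and were grown in serum with LIF on gelatin. The labels also describe a transfection of wild-type cells with an empty puromycin vector, and do not say whether these controls received it. Separate cultures or clones behind replicates 1 and 2 are not stated, and p-values measure only the spread between these libraries, which may be technical.

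Primitive endoderm is the tissue that separates from the pluripotent epiblast in the blastocyst and later lines the yolk sac. FGF signalling and the GATA factors switch it on, SOX17, SOX7 and FOXA2 act with or after them, and PDGFRA is a widely used surface marker. Its visceral derivative absorbs nutrients through megalin (LRP2) and cubilin, large receptors that are taken up in clathrin-coated pits with the help of the adaptor DAB2 and, for cubilin, the membrane partner amnionless. Cultures of embryonic stem cells in serum contain some cells with endoderm transcripts.

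Total counts were 22855451 and 23030224 in the libraries labelled knockout and 22611434 and 25344190 in the controls. Ssrp1 itself was at 305.5 and 327.3 CPM (normalised counts, scaled between libraries by TMM) in the libraries labelled knockout and at 282.2 and 305.7 CPM in the controls. Its groups overlapped, with a log2 fold change of 0.11 ± 0.065 (SE, n = 2 libraries per group; edgeR adjusted p 0.226), so the transcript level goes against the label as far as a lower level was looked for. A small Cas9 lesion can leave a transcript in place, but whether Ssrp1 was lost in these cells was not tested. The groups are called by their labels. Gm26917 and Gm42418, genes that resemble ribosomal RNA, took 6.3% and 4.64% of counts in the libraries labelled knockout, against 9.72% and 10.3% in the controls, and their part in the results was not tested beyond a fit without them. Pou5f1, the central pluripotency factor gene, was at 316.3 ± 8.54 CPM in the libraries labelled knockout and 408.4 ± 10.4 CPM in the controls (SD, n = 2 each), so both groups carried the defining transcript of embryonic stem cells.

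Most of these endoderm genes were higher in the libraries labelled knockout. Of the 10 members, 9 passed the filter on low counts, and 7 of these were called higher (edgeR's quasi-likelihood test, Benjamini-Hochberg adjusted p under 0.05), where 16.5% of all 17482 tested genes were called higher and 17.2% lower. None was called lower (0 by edgeR, 0 at an unadjusted p under 0.05 and 0 by DESeq2). Sox7 and Sox17 reached the filter's minimum in both libraries labelled knockout but not in both controls, and could not have been called lower. Among the 7 members that passed it in the controls as well, 6 were called higher. A call higher with a log2 fold change of at least 1 was reached by 5 of the 9 tested members and by 4.86% of all 17482 tested genes. The 5 include Sox7, which entered through the libraries labelled knockout. Both libraries labelled knockout lay above both controls for 9 of the 10 members, an arrangement found for 33.3% of all tested genes. The median log2 fold change was 1.70 over the 9 tested members and 0.00 over all tested genes, and the members' median includes the pair that entered through the libraries labelled knockout. Because the members were chosen with earlier results of these data known, these shares and medians are no independent test of the set. With scaling by library size alone, 3887 genes were called higher and 2215 lower, against 2877 and 3000 with TMM, and the 7 members were called under both. In these bulk libraries a change in the number of endoderm-like cells and a change in RNA per cell cannot be told apart.

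**Figure D1:**
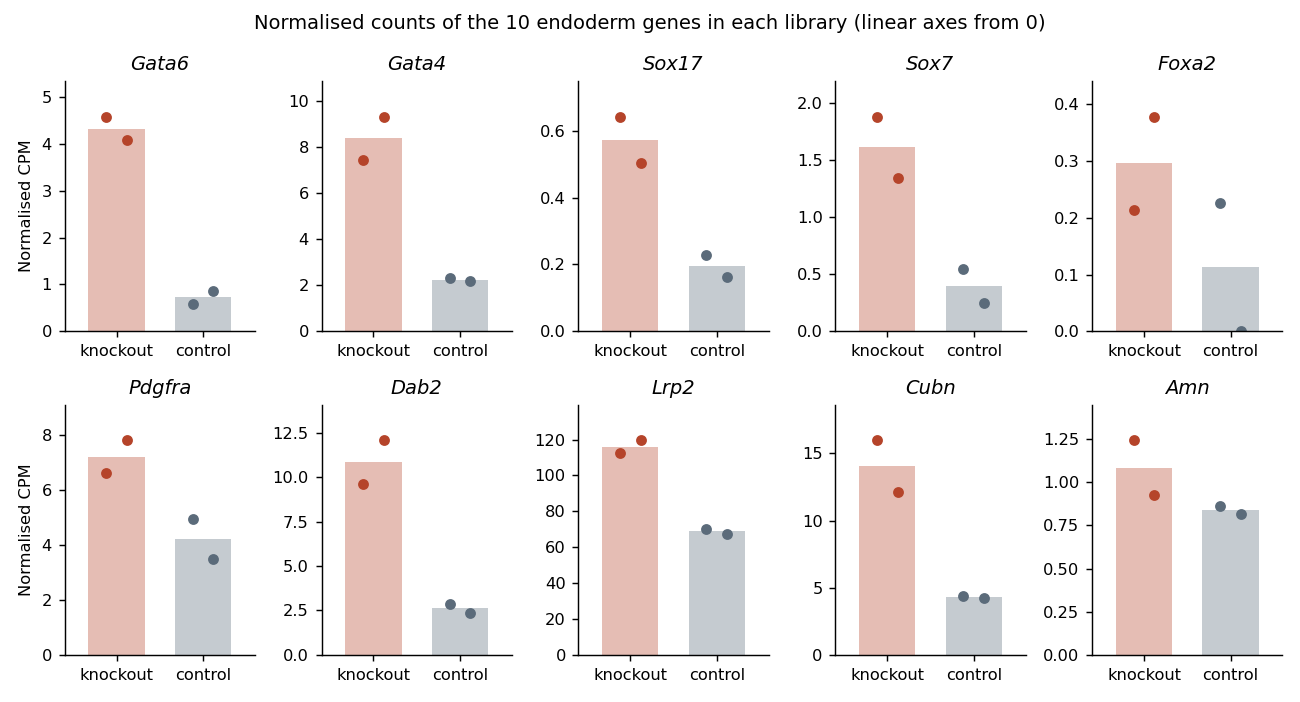
Normalised CPM of each member in each library (points), with the mean of the 2 libraries as a bar, on linear axes that start at 0 and differ between panels. Both points labelled knockout lie above both control points for every gene but Foxa2, which had no count in control 2.

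Gata6, whose product can by itself turn embryonic stem cells into endoderm, lies on chromosome 18 (11052064 to 11085635, mm10, plus strand). It was counted 107 and 97 times in the libraries labelled knockout and 13 and 21 times in the controls, which is 4.58 and 4.08 CPM against 0.589 and 0.858 CPM. The libraries labelled knockout lay close together, the controls rest on few counts and lay less close, and the groups were far apart. Its log2 fold change of 2.56 ± 0.32 (SE) was the largest among the tested members (edgeR adjusted p 4.3e-06), and the 4 pairings of a library labelled knockout with a control gave log2 ratios between 2.25 and 2.96. The ratio of summed, scaled counts was 5.92 with an exact (Clopper-Pearson) 95% interval of 4.10 to 8.78, which covers counting error only, as do the other intervals given here.

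Gata4, the related zinc-finger factor gene on chromosome 14 (63198922 to 63271692, minus strand), had 174 and 222 counts in the libraries labelled knockout and 51 and 53 in the controls. This gave 7.44 and 9.33 CPM in the libraries labelled knockout and 2.31 and 2.17 CPM in the controls. The controls were nearly equal and both libraries labelled knockout were far above them, at a log2 fold change of 1.91 ± 0.21 (edgeR adjusted p 9.5e-07).

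Sox7 and Sox17 encode SOX F group HMG-box factors that act in endoderm and also in endothelium. Sox7 (chromosome 14, 63943673 to 63950732, plus strand) had 44 and 32 counts in the libraries labelled knockout and 12 and 6 in the controls, or 1.88 and 1.35 CPM against 0.544 and 0.245 CPM. The groups did not overlap; the controls rest on few counts and differed from each other by more than a factor of 2. The log2 fold change was 2.04 ± 0.50 (edgeR adjusted p 0.0036), and it was 2.68 without control 1 and 1.56 without control 2. Sox17 (chromosome 1, 4490931 to 4497354, minus strand) had 15 and 12 counts in the libraries labelled knockout and 5 and 4 in the controls, or 0.642 and 0.504 CPM against 0.227 and 0.163 CPM. All its counts pointed the same way, but at this depth the difference did not pass the threshold (log2 fold change 1.54 ± 0.66, edgeR adjusted p 0.078, 0.061 to 0.42 over the alternatives). The ratio of summed counts was 2.96, with a counting interval of 1.35 to 7.15. Gm37587, annotated on the opposite strand, shares 804 exonic bases with Sox17 and had 3 and 2 counts in the libraries labelled knockout and 0 and 0 in the controls.

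Foxa2, a fork head factor gene of endoderm on chromosome 2 (148042877 to 148046969, minus strand), was close to undetected. It had 5 and 9 counts in the libraries labelled knockout and 5 and 0 in the controls, and it failed the filter. The groups overlapped. The ratio of summed counts was 2.76 with a counting interval of 0.94 to 9.80, and in a fit without the filter its log2 fold change was 1.38 ± 1.20 (edgeR adjusted p 0.51). A difference was not detectable at this depth, where 3 counts in a single library stand for 0.123 to 0.136 CPM.

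Together the 5 transcription factor genes summed to 14.8 and 15.6 CPM in the libraries labelled knockout and to 3.90 and 3.43 CPM in the controls, most of it from Gata4 and Gata6. Their relatives and cofactors were counted beside them. Of 9 GATA, SOX F and FOXA relatives and GATA cofactors, 4 were tested, of which 1 was called higher and 1 lower. Zfpm1, which encodes the GATA cofactor FOG1, was at 7.788 ± 1.148 CPM in the libraries labelled knockout and 3.59 ± 1.21 CPM in the controls (log2 fold change 1.12 ± 0.22, edgeR adjusted p 5.1e-04). Gata2, a GATA factor gene of blood, was at 0.974 ± 0.228 CPM in the libraries labelled knockout and 2.02 ± 0.15 CPM in the controls (-1.05 ± 0.38, edgeR adjusted p 0.037), a call that was lost with library-size scaling and with DESeq2. Sox18, the remaining SOX F gene, had 0 and 2 counts in the libraries labelled knockout and 6 and 5 in the controls. Gata3, a GATA factor gene of trophoblast and T cells that failed the filter too, had 8 and 11 counts in the libraries labelled knockout and 2 and 1 in the controls, a ratio of summed counts of 6.25 with a counting interval of 1.84 to 33.0.

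Pdgfra, the receptor tyrosine kinase gene on chromosome 5 (75152292 to 75198215, plus strand), had 155 and 186 counts in the libraries labelled knockout and 109 and 86 in the controls, or 6.63 and 7.82 CPM against 4.94 and 3.51 CPM. The groups did not overlap. The log2 fold change was 0.78 ± 0.20 (edgeR adjusted p 0.0057), and the call was lost without control 2 (0.54, adjusted p 0.087). Of 8 genes for PDGF ligands and other receptors of the family, 5 were tested, of which 1 was called higher and 2 lower. The ligand gene Pdgfc rose, at 23.7 ± 0.99 CPM in the libraries labelled knockout and 15.3 ± 1.31 CPM in the controls (0.63 ± 0.12, edgeR adjusted p 2.7e-04). Pdgfrb, the sister receptor gene, fell to 15.3 ± 0.40 CPM in the libraries labelled knockout, against 20.03 ± 1.71 CPM in the controls (-0.39 ± 0.12, edgeR adjusted p 0.016), and was not called with library-size scaling or DESeq2. Kit, the stem cell factor receptor gene that follows Pdgfra on the chromosome at a distance of 376.7 kb, fell to 108.2 ± 1.69 CPM in the libraries labelled knockout, against 142.3 ± 12.4 CPM in the controls (-0.40 ± 0.07, edgeR adjusted p 2.1e-04). Pdgfa, whose product binds PDGFRA, had 528 and 451 counts in the libraries labelled knockout and 402 and 525 in the controls, and its groups overlapped.

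The endocytic genes are introduced with the sequence before their starts, since they are the members that share a pathway but not the size of the change. The stretches are from RefSeq (GRCm38.p6), are written 5′ to 3′ on the gene's own strand, and end before the first exon base annotated in GENCODE M21. The Cubn window ends at a RefSeq start that lies outside the annotated gene. For Cubn and Pdgfra, the bases checked after the RefSeq start matched no annotated transcript of the gene. Capitals mark a match to 1 of the motifs searched.
Dab2, distal start: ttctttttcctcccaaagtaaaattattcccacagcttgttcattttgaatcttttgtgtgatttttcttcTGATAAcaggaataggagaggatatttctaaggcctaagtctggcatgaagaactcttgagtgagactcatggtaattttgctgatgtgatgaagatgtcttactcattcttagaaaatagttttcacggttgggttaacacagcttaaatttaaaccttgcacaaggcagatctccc
Dab2, proximal start: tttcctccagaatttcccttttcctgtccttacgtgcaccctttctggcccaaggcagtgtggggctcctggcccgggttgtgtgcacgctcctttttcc
Lrp2: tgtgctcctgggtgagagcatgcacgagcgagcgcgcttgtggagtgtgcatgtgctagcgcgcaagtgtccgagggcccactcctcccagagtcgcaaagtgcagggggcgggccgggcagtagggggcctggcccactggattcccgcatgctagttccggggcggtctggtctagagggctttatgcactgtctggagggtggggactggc
Cubn: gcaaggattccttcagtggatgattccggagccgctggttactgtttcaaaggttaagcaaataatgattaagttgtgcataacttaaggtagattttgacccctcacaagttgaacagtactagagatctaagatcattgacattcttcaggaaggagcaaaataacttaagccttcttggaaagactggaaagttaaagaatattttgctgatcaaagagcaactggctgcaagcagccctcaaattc
Amn: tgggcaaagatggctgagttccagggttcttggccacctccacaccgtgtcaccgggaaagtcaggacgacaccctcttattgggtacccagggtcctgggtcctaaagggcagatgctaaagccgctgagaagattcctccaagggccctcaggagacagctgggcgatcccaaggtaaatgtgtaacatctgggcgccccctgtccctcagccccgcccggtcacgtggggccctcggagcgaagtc
These are chr15:6299539-6299787 and chr15:6386498-6386597 on the plus strand for Dab2, chr2:69586066-69586279 on the minus strand for Lrp2, chr2:13491877-13492126 on the minus strand for Cubn and chr12:111270846-111271094 on the plus strand for Amn. Motifs were searched on both strands in the 250 bases before each start, as AGATAA or TGATAA for GATA factors, ACAATG or ACAAAG for SOX factors, and TGTTTAC or TGTTTGC for fork head factors. The only match among the endocytic genes was TGATAA in the distal Dab2 window, 179 bases before the start. Among all 32851 RefSeq promoters, 16.6% held a GATA motif, 25.2% a SOX motif and 7.29% a fork head motif in the same window. In the Foxa2 windows, 1 of 3 starts had AGATAA and ACAAAG, and the Pdgfra window had none. Such matches are descriptions of letters, and the counts per gene do not tell which Dab2 start was used. The windows also differed in composition: the Lrp2 window was 66.4% G and C with 18 CpG, and the Cubn window 39.6% with 2, where the median of all promoters was 52.4% and 6.

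Dab2, which encodes the adaptor that links megalin and other receptors to clathrin, rose as well. It lies on chromosome 15 (6299788 to 6440712, plus strand) and had 225 and 287 counts in the libraries labelled knockout and 63 and 58 in the controls, or 9.63 and 12.1 CPM against 2.86 and 2.37 CPM. The groups were well apart, with a log2 fold change of 2.06 ± 0.20 (edgeR adjusted p 1.4e-07).

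Cubn encodes cubilin, the receptor for the intrinsic factor and vitamin B12 complex. The gene (chromosome 2, 13276338 to 13491813, minus strand) had 373 and 288 counts in the libraries labelled knockout and 97 and 103 in the controls, or 16.0 and 12.1 CPM against 4.399 and 4.207 CPM. The libraries labelled knockout differed more from each other than the controls did, and both were well above the controls, with a log2 fold change of 1.70 ± 0.17 (edgeR adjusted p 2.6e-07). The annotated antisense gene Gm13270 shares 368 exonic bases with Cubn and had 20 and 26 counts in the libraries labelled knockout and 44 and 34 in the controls, a difference that did not pass the threshold (log2 fold change -0.79 ± 0.40, edgeR adjusted p 0.14). If counting did not use strand, reads from the shared bases cannot be assigned to either gene. The same holds for Sox17 and Gm37587, and for smaller overlaps on the opposite strand: 93 bases of Gata6 with 1010001N08Rik, 456 and 166 bases of Pdgfra with Gm42802 and Gm42803, and 211 bases of Dab2 with Gm18888. None of these smaller partners had more than 5 counts in a library, which does not tell how many reads fell in the shared bases. On its own strand, 30 bases of Pdgfra are shared with the miRNA gene Mir7025, which had 0 and 0 counts in the libraries labelled knockout and 0 and 2 in the controls.

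Amn encodes amnionless, which anchors cubilin in the membrane and carries it to the cell surface. It lies on chromosome 12 (111271095 to 111276426, plus strand) and had 29 and 22 counts in the libraries labelled knockout and 19 and 20 in the controls, or 1.24 and 0.925 CPM against 0.862 and 0.817 CPM. The groups did not overlap, but the gap between them was smaller than the spread within the libraries labelled knockout. The log2 fold change was 0.37 ± 0.45 (edgeR adjusted p 0.57). The ratio of summed counts was 1.29, with a counting interval of 0.834 to 2.01, whose upper end lies below the lower end for its partner Cubn (3.26, 2.78 to 3.84). The difference between the changes of these genes was not tested.

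Lrp2, the megalin gene, had the most counts of the members in every library. It lies on chromosome 2 (69424340 to 69586065, minus strand) and had 2628 and 2844 counts in the libraries labelled knockout and 1551 and 1653 in the controls, or 112.4 and 119.5 CPM against 70.3 and 67.5 CPM. Both groups were tight. The log2 fold change of 0.75 ± 0.07 (edgeR adjusted p 8e-08) was among the smaller of the called members and the most precise, with a ratio of summed counts of 1.69 and a counting interval of 1.61 to 1.76. The 4 endocytic genes together, most of it Lrp2, summed to 139.3 and 144.6 CPM in the libraries labelled knockout and to 78.5 and 74.9 CPM in the controls.

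**Figure D2:**
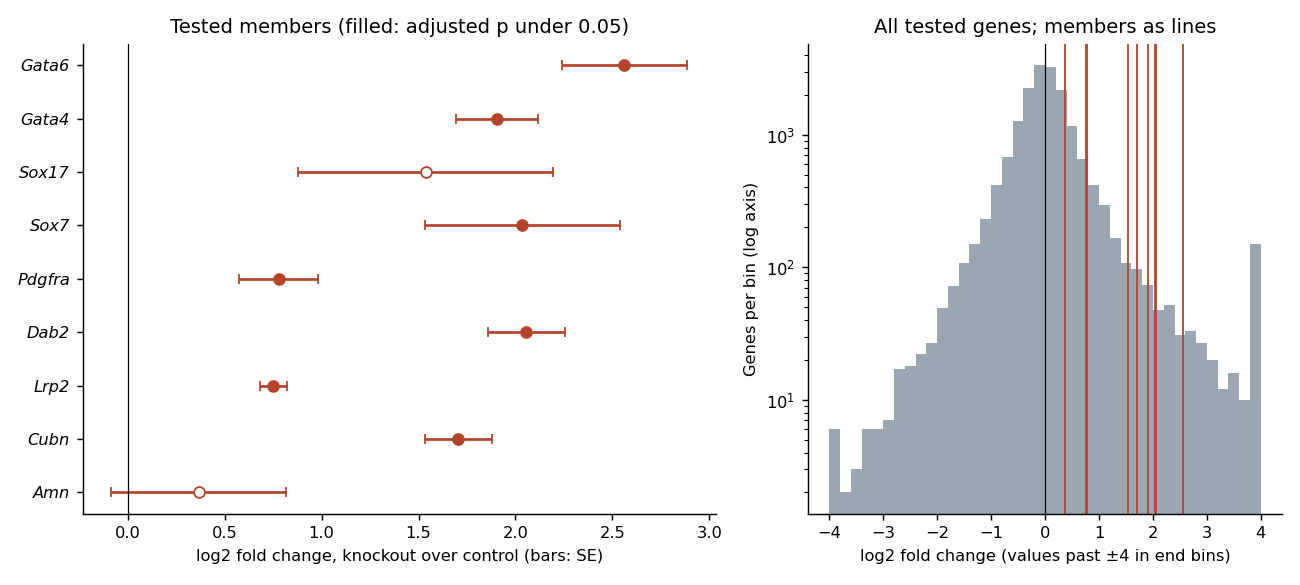
Left, log2 fold change of each tested member, knockout over control, with its SE, filled where the adjusted p was under 0.05. Right, the same values as lines over the histogram of all 17482 tested genes (log axis for the number of genes). Gata6 lies highest at 2.56, and Sox17 and Amn are the open points.

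Levels can be compared between genes only per length. Per kilobase of annotated exon, Lrp2 led in both groups, with 6.95 ± 0.30 CPM per kb in the libraries labelled knockout and 4.13 ± 0.12 in the controls (SD, n = 2). In the libraries labelled knockout it was followed by Gata4 (2.15 ± 0.34 CPM per kb), Dab2 (1.48 ± 0.23), Cubn (0.94 ± 0.18), Pdgfra (0.72 ± 0.08), Gata6 (0.665 ± 0.054), Amn (0.588 ± 0.121) and Sox7 (0.489 ± 0.115). Foxa2 (0.125 ± 0.049) and Sox17 (0.120 ± 0.020) stood at the bottom. The levels from Cubn down to Sox7 each lay within the summed SDs of the next, as did Foxa2 and Sox17. In the controls the order after Lrp2 was Gata4 (0.573 ± 0.027), Amn (0.455 ± 0.017), Pdgfra (0.422 ± 0.101), Dab2 (0.356 ± 0.047), Cubn (0.288 ± 0.009), Sox7 (0.120 ± 0.064), Gata6 (0.111 ± 0.029), Foxa2 (0.048 ± 0.068) and Sox17 (0.041 ± 0.009). Amn stood above Dab2 and Cubn in the controls and below them in the libraries labelled knockout. Amn and Pdgfra, Pdgfra and Dab2, and the 4 genes from Sox7 down did not differ beyond their spread from the next in order in the controls. The lengths are unions over all annotated transcripts, so a gene with long unused exons appears lower than it is.

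**Figure D3:**
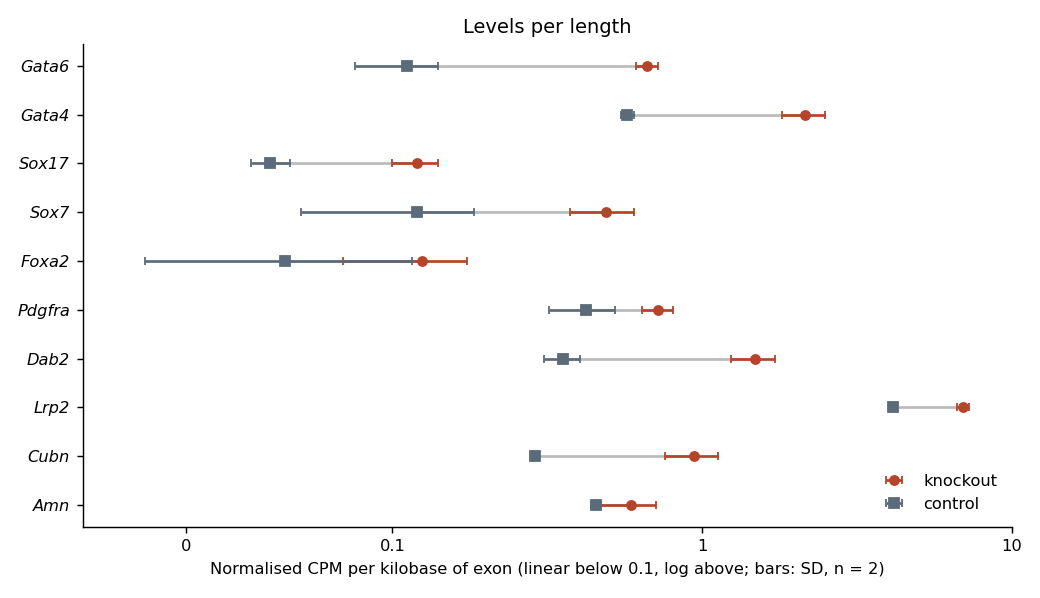
Mean level per kilobase of exon for each member (circles, libraries labelled knockout; squares, controls; bars, SD of 2 libraries), on an axis that is linear below 0.1 and logarithmic above. Lrp2 lies farthest right in both groups, and the pair of points is closest together for Amn.

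Other genes of the endoderm programme were counted in lists drawn up by function. The share over all tested genes, to be set beside the counts of every list, was 16.5% called higher and 17.2% called lower. Of 12 other extraembryonic endoderm regulators, 8 were tested, of which 3 rose and 1 fell (median log2 fold change 0.48). Hnf4a, the nuclear receptor gene that drives visceral endoderm metabolism, was the one that fell, with 9.07 ± 0.01 CPM in the libraries labelled knockout and 19.0 ± 1.09 CPM in the controls (-1.07 ± 0.13, edgeR adjusted p 2.5e-06). Otx2 (0.54 ± 0.12), Sall4 (0.26 ± 0.06) and Foxq1 (1.98 ± 0.60), transcription factor genes, rose, and 2 were called by DESeq2. Foxq1 entered the test only through the libraries labelled knockout, with 35 and 18 counts there and 9 and 4 in the controls, and could not have been called lower; DESeq2 did not call it (adjusted p 0.051).

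Genes for the secreted and transport products of mature visceral endoderm were counted next. Of 23 secretory and transport genes, 8 were tested, of which 0 rose (edgeR; 1 at an unadjusted p under 0.05, 0 by DESeq2, 1 with library-size scaling) and 2 fell, with a median of 0.08. The yolk sac genes Afp and Ttr, together with Apoc2, Fgb, Spp2 and Cer1, had no count in any library. The lipid carrier gene Apoe fell to 181.1 ± 12.7 CPM in the libraries labelled knockout, against 292.3 ± 21.6 CPM in the controls (-0.69 ± 0.07, edgeR adjusted p 2.5e-07). Trf, which encodes transferrin, fell to 6.53 ± 0.14 CPM in the libraries labelled knockout, against 16.97 ± 0.78 CPM in the controls (-1.38 ± 0.14, adjusted p 2.7e-07). Of 18 parietal endoderm and basement membrane genes, 17 were tested, of which 6 rose and 2 fell (median 0.15). The collagen IV genes Col4a1 (1.18 ± 0.11) and Col4a2 (1.36 ± 0.14) and the laminin gene Lamb1 (0.50 ± 0.06) rose, and the nidogen gene Nid1 (-0.73 ± 0.07) and Vim (-0.68 ± 0.07) fell. The summed level of this list was 2393 and 2448 CPM in the libraries labelled knockout and 2388 and 2448 CPM in the controls.

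Upstream, the FGF pathway splits inner cells between epiblast and endoderm, and Nanog and its partners oppose Gata6. Of 20 genes of FGF-ERK input and pluripotency factors, 19 were tested, of which 5 rose and 10 fell (median -0.30). The ligand gene Fgf4 fell (-0.96 ± 0.07, edgeR adjusted p 8.7e-10), while the receptor gene Fgfr2, a receptor of the primitive endoderm lineage, rose to 29.2 ± 0.73 CPM in the libraries labelled knockout, against 11.5 ± 0.51 CPM in the controls (1.35 ± 0.11, adjusted p 2.4e-08). Grb2, the adaptor gene downstream of the receptors, also rose (0.36, adjusted p 5.1e-04), and so did Nanog (0.17, adjusted p 0.039). Among the factors that maintain the naive state, Tfcp2l1 (-0.61 ± 0.06) and Klf2 (-0.59 ± 0.07) fell, as did the kinase gene Mapk3 (-0.37 ± 0.06).

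The relatives of megalin and the rest of the uptake machinery were counted beside Lrp2, Cubn and Dab2. Of 28 genes of the LDL receptor family and endocytic partners, 24 were tested, of which 3 rose and 12 fell (median -0.24). Lrp8, the apolipoprotein E receptor gene, fell to 9.62 ± 0.18 CPM in the libraries labelled knockout, against 22.97 ± 1.31 CPM in the controls (-1.25 ± 0.12, edgeR adjusted p 1.8e-07). Sorl1 (-0.62 ± 0.06), Lrp1 (-0.65 ± 0.07), Lrp5 (-0.52 ± 0.08) and Tcn2 (-0.53 ± 0.10), which encodes the vitamin B12 carrier transcobalamin, also fell. Dab1, the neuronal relative of Dab2, fell (-0.43, adjusted p 0.023), and Lrpap1, which encodes the chaperone that escorts megalin and its relatives through the secretory pathway, rose (0.35, adjusted p 0.0054). Of 20 clathrin coat and AP-2 adaptor genes, all tested, 2 rose and 3 fell (median -0.05), and with library-size scaling 5 rose and 1 fell, so the balance of this list depended on the scaling. Cltc, the clathrin heavy chain gene, was at 897.3 ± 12.5 CPM in the libraries labelled knockout and 1024 ± 3.44 CPM in the controls (-0.19 ± 0.06, adjusted p 0.013). Ap2a1 (-0.43) and Fcho1 (-0.30) fell too, and Hip1 (0.43) and Eps15 (0.23) rose. Of 19 genes of early and recycling endosomes, 2 rose and 2 fell (median -0.02). Ehd1, which acts in receptor recycling, rose (0.55 ± 0.07, adjusted p 5.8e-06), and Vps35, the retromer core gene, fell (-0.30 ± 0.07, adjusted p 0.0016), as Rab5a rose (0.21) and Rab11fip2 fell (-0.47). DESeq2 called 2 higher and 1 lower, without Rab11fip2 (adjusted p 0.058).

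**Figure D4:**
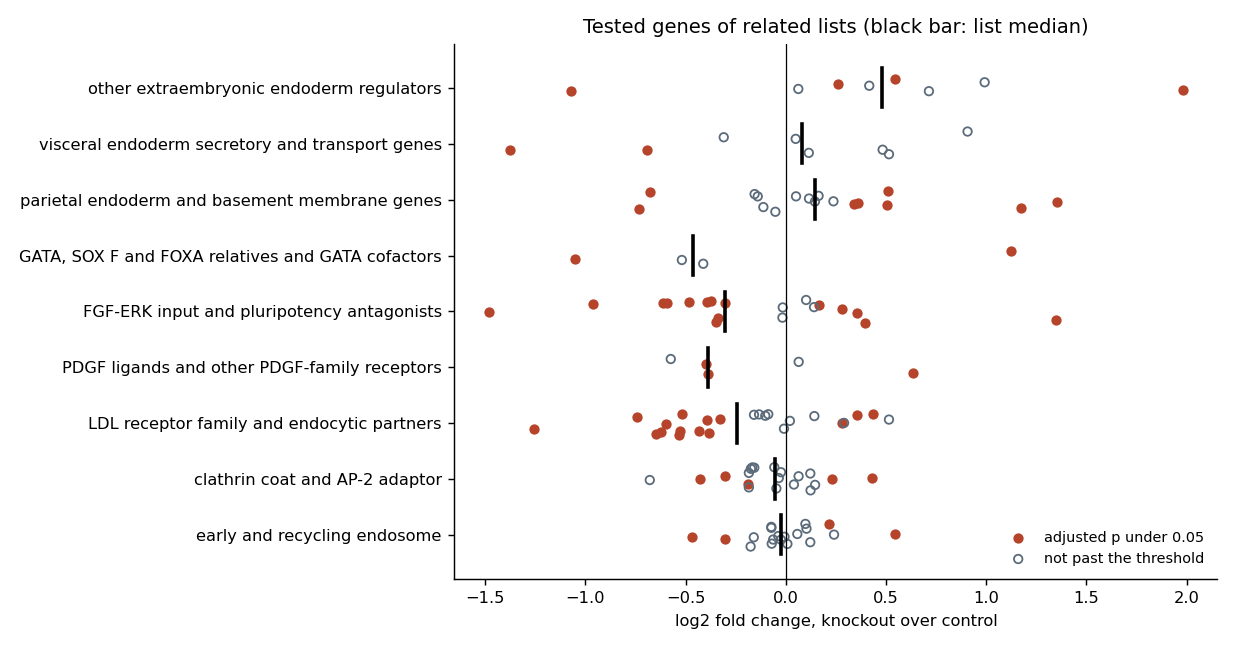
Log2 fold change, knockout over control, of the tested genes in 9 related lists, with filled points past an adjusted p of 0.05 and a black bar at each list's median. The median of the LDL receptor family list is -0.24 and that of the other endoderm regulators 0.48, and points lie on both sides of 0 in every list.

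Several members are also expressed outside extraembryonic endoderm, and markers of those tissues were read in the same libraries. Their part in the members' results was not tested. For definitive endoderm and mesendoderm, which use Sox17 and Foxa2, 5 of 11 markers were tested, of which 1 rose (Trh) and 1 fell (Cxcr4). Cer1 was at 0 in every library, T had 5 and 1 counts in the libraries labelled knockout and 10 and 11 in the controls, and the summed level was 258.2 and 299.7 CPM in the libraries labelled knockout and 198.8 and 178.7 CPM in the controls, most of it Trh. For endothelium and blood, which use Sox7 and Sox17, 7 of 12 markers were tested, of which 4 rose (Tek, Runx1, Etv2 and Kdr) and 1 fell (Pecam1). Tek was at 17.3 ± 0.08 CPM in the libraries labelled knockout and 6.95 ± 1.43 CPM in the controls (1.31 ± 0.15, edgeR adjusted p 1.3e-06). Runx1 was at 2.48 ± 0.12 CPM in the libraries labelled knockout and 0.615 ± 0.228 CPM in the controls, and the endothelial cadherin gene Cdh5 had 0 and 4 counts in the libraries labelled knockout and 0 and 1 in the controls. Etv2, with 10 and 23 counts in the libraries labelled knockout and 2 and 0 in the controls, and Kdr, with 23 and 14 against 3 and 7, passed the filter on their counts in the libraries labelled knockout alone and could not have been called lower, and Kdr was not called by DESeq2 (adjusted p 0.12). The summed level of that list was 154.7 and 170 CPM in the libraries labelled knockout and 176.6 and 189.9 CPM in the controls, most of it Pecam1. Without Pecam1 it was 23.2 and 23.4 CPM in the libraries labelled knockout and 8.07 and 11.2 CPM in the controls. For the heart and mesoderm, which use Gata4 and Gata6, 4 of 10 markers were tested and 1 rose, the myosin gene Myh6 (1.81 ± 0.27, adjusted p 3.8e-05), with sums of 20.7 and 22.7 CPM in the libraries labelled knockout and 16.9 and 16.8 CPM in the controls. For fibroblasts and feeder cells, which express Pdgfra, 5 of 10 were tested, Col5a2 rose and Pdgfrb fell, Dcn, Lum and Postn were at 0, and the sums were 33.0 and 35.9 CPM in the libraries labelled knockout and 38.6 and 40.3 CPM in the controls. Col5a2 had 23 and 24 counts in the libraries labelled knockout and 3 and 5 in the controls, so it too entered the test only through the libraries labelled knockout and could not have been called lower; Pdgfrb was not called with library-size scaling or DESeq2. For trophoblast, 5 of 10 were tested and 3 rose (Tfap2c, Gcm1 and Esx1), Prl3d1 and Tpbpa were at 0, and the sums were 98.7 and 105.2 CPM in the libraries labelled knockout and 58.6 and 57.7 CPM in the controls, most of it Tfap2c. Gcm1 had 14 and 14 counts in the libraries labelled knockout and 0 and 0 in the controls, with the same limit, and Esx1 was not called by DESeq2 (adjusted p 0.053). Of 10 neuroectoderm markers 6 were tested, of which Nes rose (1.00) and Ncam1 (-2.40), Map2 (-0.97) and Sox1 (-1.98) fell, with sums of 88.9 and 93.1 CPM in the libraries labelled knockout and 159.7 and 166.4 CPM in the controls. Without Ncam1 the sums were 74.4 and 75.7 CPM in the libraries labelled knockout and 77.45 and 79.6 CPM in the controls. Of the 12 pluripotency genes, all tested, 3 rose and 8 fell with edgeR, against 1 higher and 7 lower by DESeq2, the falls including Dppa5a (-0.61) and Esrrb (-0.35), with sums of 4654 and 4550 CPM in the libraries labelled knockout and 5881 and 6024 CPM in the controls.

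Gata4 and Sox7 lie 0.672 Mb apart on chromosome 14, the closest pair among the members, with 6 protein-coding genes between them. In the fit 5 of them were tested, of which 3 rose and 1 fell, where 16.5% of all tested genes were called higher and 17.2% lower. Xkr6, a membrane scramblase family gene, was at 7.53 ± 0.18 CPM in the libraries labelled knockout and 3.06 ± 0.29 CPM in the controls (log2 fold change 1.30 ± 0.20, edgeR adjusted p 4.2e-05). Pinx1, which encodes a telomerase inhibitor and ends 23.8 kb before Sox7, was at 15.4 ± 3.10 CPM in the libraries labelled knockout and 8.61 ± 0.97 CPM in the controls (0.84 ± 0.16, adjusted p 2.8e-04). Fam167a was at 8.20 ± 0.35 CPM in the libraries labelled knockout and 5.51 ± 0.29 CPM in the controls (0.57 ± 0.17, adjusted p 0.014). Tdh, the threonine dehydrogenase gene that is highly active in embryonic stem cells, fell (-0.40 ± 0.07, adjusted p 1.2e-04), Mtmr9 differed by less than its error (-0.05 ± 0.08, adjusted p 0.67), and Blk had no count. On the other side of Gata4, Neil2, 5.07 kb away, fell (-0.41 ± 0.09, adjusted p 0.0014). The interval was chosen because members bound it, and no test of the interval as a whole was made.

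**Figure D5:**
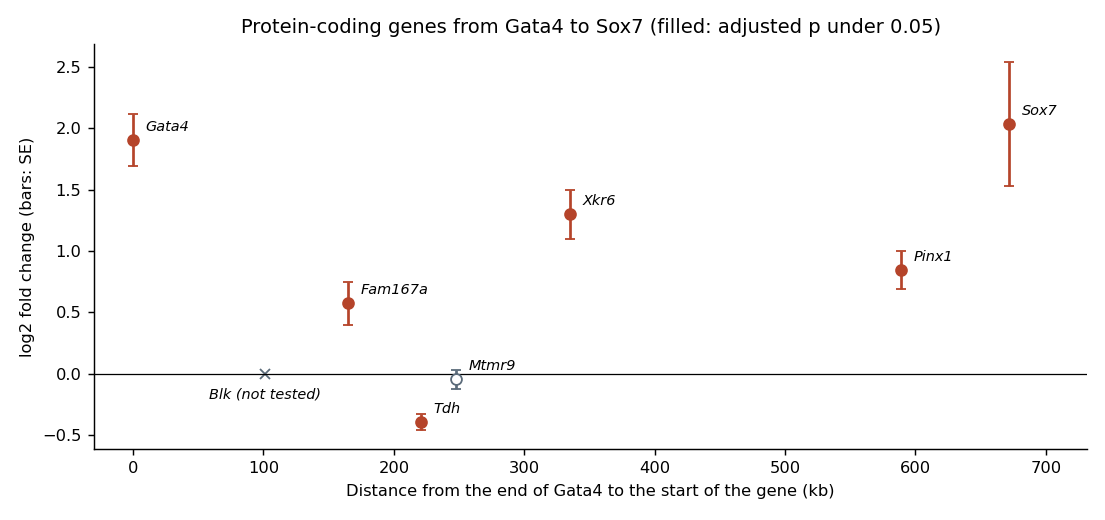
Log2 fold change, knockout over control, with its SE, of Gata4, Sox7 and the protein-coding genes between them, against distance in kb. Distances run from the higher-coordinate end of Gata4, which is its 5′ side. Gata4 and Sox7 lie highest at the ends (1.91 and 2.04), and Tdh lies below 0.

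The nearest protein-coding genes of the other members were read in the same fit. Before and after are given by chromosome coordinate, whatever the strand of the gene. Rsu1, 4.92 kb from Cubn, had a log2 fold change of -0.07 (edgeR adjusted p 0.63), while Trdmt1, 17.2 kb on its other side, rose by 0.41 (adjusted p 0.034). Near Lrp2, Bbs5 was at -0.07 (adjusted p 0.82) and Dhrs9 had no count. Near Gata6, Mib1 rose by 0.23 (adjusted p 0.011) at 233.4 kb, and Rbbp8 was at -0.07 (adjusted p 0.57). Gsx2, 74.4 kb before Pdgfra, fell to 0.213 ± 0.123 CPM in the libraries labelled knockout, against 1.85 ± 0.05 CPM in the controls, while Pdgfra between it and Kit was higher. C9, 4.62 kb after Dab2, had no count in any library, and Ptger4, 1056 kb before Dab2, was at 0.27 (adjusted p 0.71). Near Amn, Cdc42bpb rose by 0.20 (adjusted p 0.035) at 16.55 kb, while Traf3, 3.94 kb before it, was at 0.19 (adjusted p 0.18). Mrpl15, 275.9 kb after Sox17, was at -0.02 (adjusted p 0.85). Rp1 before Sox17, 4930578I06Rik after Sox7, and Pax1 and Sstr4 beside Foxa2 did not pass the filter.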

How the data were processed

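The authors deposited raw counts for each gene symbol, made with cutadapt, HISAT2 and featureCounts on mm10, per the submitters' processing notes. Versions, annotation release, strand setting and the treatment of multi-mapping reads remain not given in the sources used here. Per the labels' protocols, total RNA was depleted of ribosomal RNA, primed with random primers and sequenced from both ends. The column names carry OK where the sample titles carry KO, and gene, role and number fit 1 sample each.

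Genes were filtered with filterByExpr (minimum count 10, minimum total 15), scaled by TMM and tested with edgeR 4.0.16 in R 4.3.3 (quasi-likelihood F test, group only, Benjamini-Hochberg over 17482 genes, threshold 0.05). The standard error is the log2 fold change over the square root of F. Normalised CPM used the scaled library sizes. Positions and exon lengths came from GENCODE M21, on the same build, and promoters from RefSeq (GRCm38.p6), which gave windows for 6 of the 10 members. Alternatives were scaling, DESeq2 1.42.0, filters, a replicate block, removal of the ribosomal-RNA-like genes and leaving out each library. The edgeR script was tested on simulated data.

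Named genes are all members, Ssrp1 and, for each list, up to 5 tested genes past the threshold, taken by adjusted p. Pou5f1 came by that rule. Grb2, Nanog, Dab1, Lrpap1, Pdgfa, Sox18, Gata3, Cdh5, T and the overlapping and neighbouring genes were named after their values were seen. The members and lists were chosen with earlier results of these data known. The libraries of a group differed by more than sampling noise (chi-square per degree of freedom 11.5 in the libraries labelled knockout and 3.37 in the controls), so neither pair looked like 1 library deposited under a pair of labels.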

Additional observations from a re-analysis of the deposited data

How the results depend on the processing

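The 7 called members were also called under each of the 11 alternatives, except Pdgfra without control 2 (log2 fold change 0.54, adjusted p 0.087), so that leaving out 1 library at a time gave 6 to 7 members higher and 0 lower. No tested member changed direction. Sox17 and Amn were not called under any alternative, and the filter of at least 1 CPM in 2 libraries gave no value for either. Sox7 had the widest range, from 1.56 to 2.68, and Gata6 ranged from 2.32 to 2.86, Dab2 from 1.88 to 2.21, Cubn from 1.49 to 1.89 and Lrp2 from 0.70 to 0.83. Over all genes, the number called higher was 1915 to 2995 when libraries were left out in turn (1915 without control 1), against 2877. Rises made up 49% of calls with TMM and 63.7% with library-size scaling.

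The replicate numbers do not pair the libraries as far as the labels say, and the deviations of same-numbered libraries had a correlation of 0.01 over genes. With a replicate block, 7 members were higher and 0 lower, as were 3072 genes, with 3216 lower, and no member's call changed. Low counts limit Foxa2, Sox17, Sox7 and Amn.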
